A study of Homo sapiens with 6 samples.

Results

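The genes described here are 51 genes of DNA replication and S phase, found by symbol in a table of 60675 genes from SUM159 cells, a human cell line from a triple-negative breast tumour. All 51 were found, 1 row each, and all 51 passed the filter on low counts that left 14613 genes for testing. The study compared 3 libraries labelled control, whose genotype is given as DAPK3 WT, with 3 labelled DAPK3 KO, from 1 knockout line with the number 3, to find genes altered by loss of DAPK3, a member of the death-associated protein kinases. All cells were grown in Ham's F-12 with serum, HEPES, insulin and hydrocortisone, and polyA RNA was sequenced. No label says if replicates were grown as separate cultures, so p-values here cover only library-to-library spread, possibly technical.

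Each origin of replication is licensed in G1, when the origin recognition complex with CDC6 and CDT1 loads the MCM2 to MCM7 helicase onto DNA. In S phase CDC45 and the GINS complex join the helicase, primase and polymerases copy both strands, PCNA clamps the polymerases to DNA, and nucleotide enzymes supply the building blocks. Many of these genes are transcribed at the G1 to S transition by E2F factors, which the RB proteins hold back until cyclin-dependent kinases release them.

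Throughout, control and KO name the labels of the libraries, and values per library are listed in the order R1, R2, R3. Levels are in CPM, each library's counts scaled to the same total. DAPK3 RNA was at 26.2, 10.5 and 26.1 CPM across the control libraries and 13.1, 27.2 and 11.2 across the KO libraries. By RNA level control R2 and KO R2 thus went against their labels. An RNA level does not by itself show the genotype, and whether these labels are right was not tested. Every direction given between the labels carries this limit, and no library was moved to another group. Totals ran from 16312184 to 22970823 expected counts. EGFR, CD44 and VIM were at 302 CPM or more in each library, ESR1 was at 0.478 or less and PGR had no counts, while ERBB2 stood at 52.2 to 97.8. Among 5 blood markers the summed level was 10.7 to 12.7 CPM in control and 10.5 to 14.4 in KO. Most of it was CD68, at 6.80 to 13.6 CPM, while CD3E reached 0.0489 CPM. Of 3 endothelial markers the sum, nearly all of it PECAM1, was 1.56 to 1.77 CPM in control and 0.434 to 1.81 in KO. CDH5 had no counts. For 4 stromal markers the sum, nearly all of it COL1A1, was 75.1 to 655 CPM in control and 60.8 to 558 in KO, and all 4 liver and neural markers stayed under 1 CPM. COL1A1 went with DAPK3 RNA and not with the label, at 492, 63.95 and 626 CPM across the control libraries and 57.2, 540 and 55.6 across the KO libraries. PDGFRB (11.5 to 19.4 CPM in the 3 libraries with high DAPK3 RNA, 1.17 to 1.96 in the others) and PTPRC (2.92 to 3.28, and 0.106 or less) split in the same way. The 13 mitochondrial protein genes together gave 44270, 46810 and 69070 CPM in the control libraries and 53850, 44910 and 41490 in the KO libraries. The part of these markers in the results was not tested.

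Promoter letters were not used to choose the members. Many of these genes are known to be transcribed by E2F factors, so a high share of E2F letters among them is no independent result. RefSeq promoters (GRCh38.p14, 250 bases before to 50 after each start) were found for 43 of the 51 genes. The E2F letters TTTCCCGC, TTTGGCGC, TTTCGCGC or TTTGCCGC stood on either strand in the promoters of 22 of the 43 (51.2%), against 1090 of 27305 genes in all (3.99%). The letters CCAAT stood in 60.5% of the 43 and in 39.7% of the 27305 genes. The GC box GGGCGG stood in 74.4% and 48.3%, and TTTGAA or TTCGAA, the letters of the CHR element of late cell cycle genes, in 4.65% and 19.5%. The 27305 are all genes with a promoter entry and include genes not tested here, while the 43 were all tested. A match is a run of letters, not a shown binding site, and short motifs can overlap one another.

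For the genes with the smallest p in 6 of the role groups, 200 bases before and 20 after the start are printed 5′ to 3′ in lower case, with E2F letters in capitals. PCNA (chr20:5126603-5126822, minus strand) has them 59 bases before the start, TYMS (chr18:657453-657672, plus strand) 39 bases before it, and CLSPN (chr1:35769959-35770178, minus strand) and POLE2 (chr14:49688195-49688414, minus strand) 5 bases before it. In MCM2 (chr3:127598211-127598430, plus strand) a match on each strand overlaps just after the start. ORC1 (chr1:52404404-52404623, minus strand) has no exact match in this window. It holds attggcgc, which differs from TTTGGCGC in the first base, so a missing match does not show that a site is absent.
PCNA: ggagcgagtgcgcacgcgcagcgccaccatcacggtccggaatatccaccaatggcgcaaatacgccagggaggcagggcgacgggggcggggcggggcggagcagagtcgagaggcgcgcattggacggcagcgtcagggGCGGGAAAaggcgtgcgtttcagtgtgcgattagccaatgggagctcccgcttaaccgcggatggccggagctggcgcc
MCM2: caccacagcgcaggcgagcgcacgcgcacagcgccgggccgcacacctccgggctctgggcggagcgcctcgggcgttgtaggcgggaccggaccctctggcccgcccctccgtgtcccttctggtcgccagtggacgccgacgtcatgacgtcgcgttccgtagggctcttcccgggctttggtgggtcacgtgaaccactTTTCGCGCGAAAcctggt
POLE2: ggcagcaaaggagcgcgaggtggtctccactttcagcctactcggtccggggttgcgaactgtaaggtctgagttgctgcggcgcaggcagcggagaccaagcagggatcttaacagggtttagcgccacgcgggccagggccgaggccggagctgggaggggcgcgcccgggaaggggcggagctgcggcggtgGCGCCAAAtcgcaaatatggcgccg
TYMS: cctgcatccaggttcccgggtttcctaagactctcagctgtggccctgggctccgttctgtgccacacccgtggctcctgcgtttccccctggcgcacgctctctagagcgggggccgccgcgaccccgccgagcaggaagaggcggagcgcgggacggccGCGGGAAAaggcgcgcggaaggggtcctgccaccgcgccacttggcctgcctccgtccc
CLSPN: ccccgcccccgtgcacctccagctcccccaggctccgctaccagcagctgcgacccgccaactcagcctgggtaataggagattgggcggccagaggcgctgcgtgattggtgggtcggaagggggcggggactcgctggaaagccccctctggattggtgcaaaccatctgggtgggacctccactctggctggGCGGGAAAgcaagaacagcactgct
ORC1: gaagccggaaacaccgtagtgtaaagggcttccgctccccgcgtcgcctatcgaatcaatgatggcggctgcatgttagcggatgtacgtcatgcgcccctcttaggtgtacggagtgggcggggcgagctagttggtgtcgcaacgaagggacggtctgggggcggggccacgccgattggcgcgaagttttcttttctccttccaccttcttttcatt

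MCM6, whose sequence is not printed, had 4 matches in 2 overlapping pairs, the first beginning 152 and the second 90 bases before the start. The median log2 fold change of KO over control was −0.63 over the 22 genes with E2F letters and −0.44 over the 21 without, a description with no test.

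All 51 genes were lower in KO than in control by fitted fold change, as were 7311 of the 14613 genes tested. The differences ran from −0.04 to −1.79 on the log2 scale, with a median of −0.55, against 0.00 over all genes tested. None passed the test: edgeR's quasi-likelihood test called 0 of 14613 genes (0% called), and the smallest adjusted p was 0.635. Before adjustment, 33 of the 51 were lower at p under 0.05 (64.7%, against 4.17% of all genes) and 0 were higher (against 3.49%). In 35 genes every KO library was below every control library, an order met by 6.86% of all genes. DESeq2 called 124 genes, among them 12 of the 51, all lower (0.493% of all genes were called lower), and limma-voom called 0. Leaving out control R1 or KO R1 each brought the 33 down to 20, while the share of all genes went from 4.17% to 1.42% and 2.37%. Fewer cells in S phase and less of these RNAs per cell cannot be told apart in bulk RNA.

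**Figure D1:**
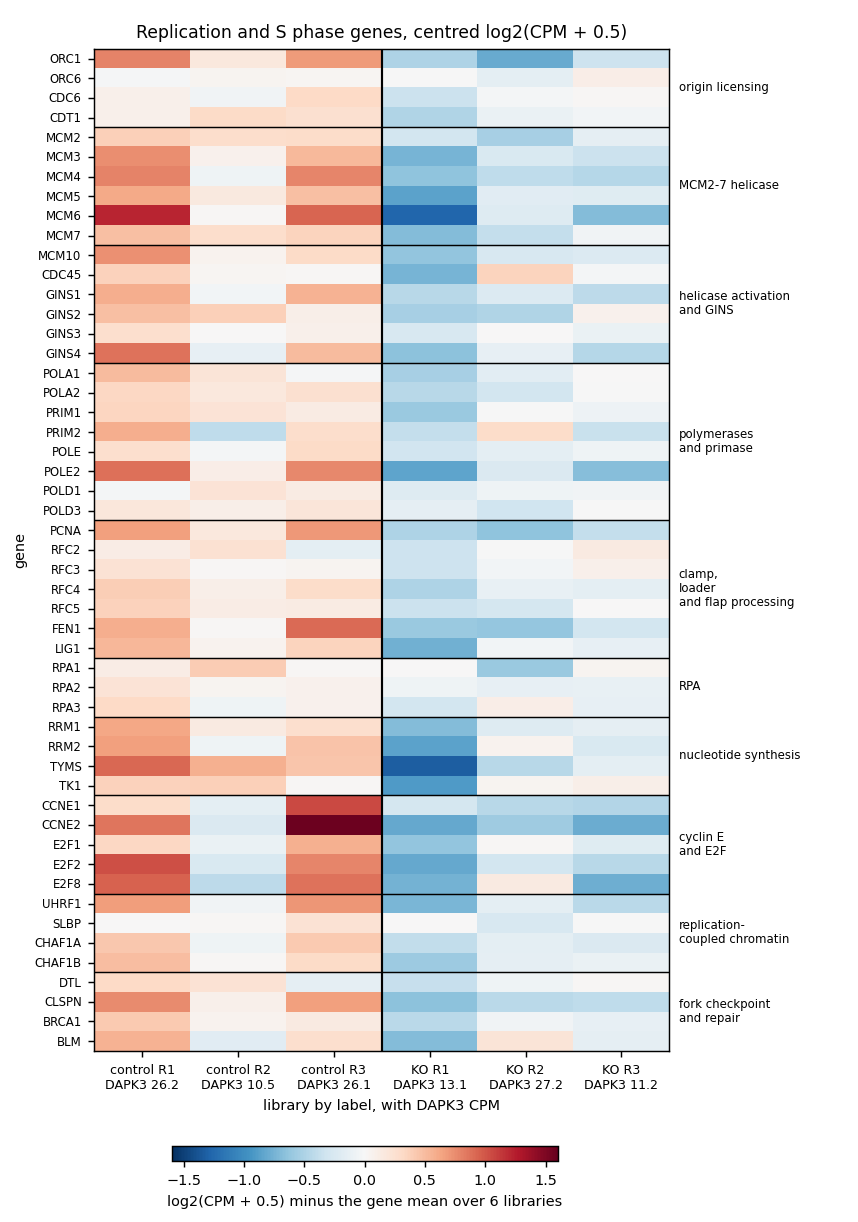
Level of each of the 51 genes in each library, as log2(CPM + 0.5) minus the gene's mean over the 6 libraries, with genes in rows by role and libraries in columns by label, DAPK3 CPM written under each. Red is above and blue below the gene's mean: control R1 and control R3 are mostly red, control R2 is near 0, and KO R1 is the bluest.

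Of the origin licensing genes, ORC1, the largest subunit of the origin recognition complex (ENSG00000085840, GENCODE 29 on GRCh38, chromosome 1, 52372829 to 52404459, minus strand), stood at 31.2, 19.98 and 28.8 CPM across the control libraries and 12.5, 9.96 and 13.98 across the KO libraries. The labels did not overlap, and the lowest library was KO R2, in which DAPK3 RNA was high. On the log2 scale KO was lower, at −1.13 (SE 0.23), with an edgeR adjusted p of 0.635. ORC6, another subunit of the complex, stood at 52.6, 55.25 and 54.6 CPM across the control libraries and 53.4, 47.7 and 57.4 across the KO libraries, with overlapping labels (−0.04, SE 0.11) and the smallest difference of the 51. CDC6, the loading factor, stood at 94.4, 85.8 and 111 CPM across the control libraries and 70.0, 87.1 and 89.7 across the KO libraries (−0.24, SE 0.15). CDT1, its partner in loading, had a log2 fold change of −0.43 (SE 0.18) with no overlap.

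Each of the 6 genes of the MCM2 to MCM7 helicase was lower in all 3 KO libraries than in all 3 control libraries (6.86% of all genes). All 6 were lower at an unadjusted p under 0.05 (4.17% of all genes), with a median log2 fold change of −0.85. The summed level was 1347, 964 and 1228 CPM across the control libraries and 542, 677 and 732 across the KO libraries. MCM6 (ENSG00000076003, chromosome 2, 135839626 to 135876426, minus strand) differed most, at 132, 56.7 and 107 CPM across the control libraries and 22.9, 48.4 and 34.5 across the KO libraries. In order of level, control R2 and KO R2 were neighbours in the middle. On the log2 scale KO was lower, at −1.48 (SE 0.38), with an edgeR adjusted p of 0.635. MCM2 had the smallest SE of the 6, at 189.8, 177.1 and 177.5 CPM across the control libraries and 117.8, 100.6 and 131.7 across the KO libraries (−0.64, SE 0.13, edgeR adjusted p = 0.635). MCM7 stood at 373, 326 and 343.5 CPM across the control libraries and 165, 205.5 and 257 across the KO libraries (−0.73, SE 0.18). MCM3, MCM4 and MCM5 had log2 fold changes of −0.90, −1.05 and −0.81.

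Levels of different genes were compared per kilobase of merged exons, as means over the 6 libraries. MCM7 was highest of the 51 at 63.4 CPM per kilobase, followed by PCNA at 58.6 and MCM3 at 50.7. The helicase subunits, which form a ring with 1 copy of each, ranged down to 11.9 CPM per kilobase for MCM5. The merged length counts exons that the cells may not use, so these levels are approximate.

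Helicase activation genes were lower to different degrees. MCM10, which helps to activate the loaded helicase, stood between 37.71 and 60.49 CPM across the control libraries and between 23.07 and 31.04 across the KO libraries, with no overlap (−0.76, SE 0.22). Of the 4 GINS subunits, 3 were lower at an unadjusted p under 0.05 (4.17% of all genes) and 3 had no overlap (6.86%). GINS1 stood at 28.9, 18.6 and 28.4 CPM across the control libraries and 14.03, 16.39 and 14.24 across the KO libraries (−0.76, SE 0.21, edgeR adjusted p = 0.635). GINS4 and GINS2 had log2 fold changes of −0.89 (SE 0.29) and −0.63 (SE 0.22), and GINS3 of −0.25 (SE 0.15). CDC45, the third component of the active helicase, stood at 74.4, 59.1 and 58.2 CPM across the control libraries and 34.2, 74.1 and 56.4 across the KO libraries. Its labels overlapped, since KO R2 was as high as control R1 (−0.22, SE 0.28).

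The polymerase and primase genes had a median log2 fold change of −0.41, and 6 of 8 did not overlap (6.86% of all genes). POLE2, an accessory subunit of leading-strand polymerase epsilon, stood at 14.12, 8.08 and 13.04 CPM across the control libraries and 3.93, 6.25 and 4.47 across the KO libraries. The difference was −1.27 on the log2 scale (SE 0.30), with an edgeR adjusted p of 0.635. POLE, the catalytic subunit of the same enzyme, differed less, at 142, 115 and 146 CPM across the control libraries and 94.6, 105 and 112 across the KO libraries (−0.37, SE 0.14). For polymerase alpha, which starts each strand with primase, POLA1 and POLA2 had −0.47 (SE 0.20) and −0.49 (SE 0.15). The primase genes PRIM1 and PRIM2 had −0.44 (SE 0.19) and −0.33 (SE 0.31). PRIM2 went with DAPK3 RNA and not with the label, at 51.2, 25.5 and 41.7 CPM across the control libraries and 26.0, 41.9 and 26.4 across the KO libraries. For polymerase delta, which copies the lagging strand, POLD3 had −0.31 (SE 0.13) and POLD1 −0.23 (SE 0.12), POLD1 standing at 41.0, 48.9 and 46.0 CPM across the control libraries and 36.2, 39.9 and 40.1 across the KO libraries.

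PCNA, the sliding clamp (ENSG00000132646, chromosome 20, 5114953 to 5126626, minus strand), had the smallest p of the 51, ranking 3 among all genes tested. It stood at 126, 90.4 and 131 CPM across the control libraries and 56.7, 51.4 and 61.6 across the KO libraries, on 831 to 2593 counts per library. All KO libraries were close together and below all control libraries, and control R2 was the lowest control. The mean was 116 ± 22.1 CPM for control and 56.6 ± 5.11 for KO (SD, n = 3). On the log2 scale KO was lower, at −1.03 (SE 0.17), with an edgeR adjusted p of 0.635. FEN1, the nuclease that trims Okazaki fragments, stood at 90.4, 61.3 and 113 CPM across the control libraries and 39.9, 39.0 and 49.0 across the KO libraries (−1.05, SE 0.24). LIG1, the ligase that seals them, had a log2 fold change of −0.62 (SE 0.24) with no overlap. Of the genes of the clamp loader, RFC4 and RFC5 had −0.52 (SE 0.15) and −0.41 (SE 0.15) with no overlap, and RFC2 and RFC3 had −0.13 (SE 0.17) and −0.19 (SE 0.15) with overlap. RFC2 stood at 74.8, 81.6 and 61.9 CPM across the control libraries and 54.5, 68.7 and 76.0 across the KO libraries.

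The RPA genes, whose proteins coat single-stranded DNA, had small fitted differences: RPA1, RPA2 and RPA3 had log2 fold changes of −0.34 (SE 0.20), −0.22 (SE 0.11) and −0.22 (SE 0.17). RPA2 stood at 63.8, 56.4 and 57.4 CPM across the control libraries and 52.5, 50.1 and 50.4 across the KO libraries, with no overlap (edgeR adjusted p = 0.668). RPA1 stood at 129, 158 and 121 CPM across the control libraries and 120, 79.0 and 123 across the KO libraries, where control R2 was the highest and KO R2 the lowest library.

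**Figure D2:**
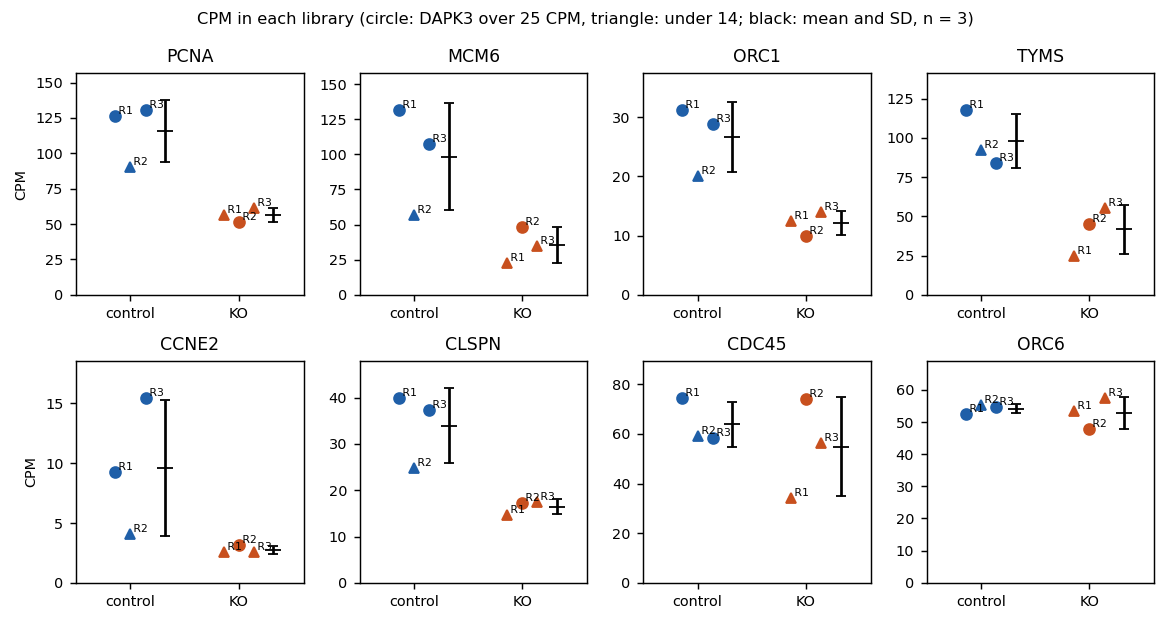
CPM of 8 of the genes in each library, labelled control (blue) or KO (orange), with circles for libraries with DAPK3 over 25 CPM and triangles for those under 14, and the mean and SD of 3 libraries in black. PCNA, MCM6, ORC1, TYMS, CCNE2 and CLSPN do not overlap between the labels, while CDC45 and ORC6 do.

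Among nucleotide synthesis genes, TYMS, thymidylate synthase (ENSG00000176890, chromosome 18, 657604 to 673578, plus strand), stood at 118, 92.0 and 84.2 CPM across the control libraries and 24.7, 45.3 and 55.4 across the KO libraries. The labels did not overlap, and KO R1 was the lowest library (−1.23, SE 0.30, edgeR adjusted p = 0.635). The ribonucleotide reductase genes RRM1 and RRM2, which make deoxynucleotides, had log2 fold changes of −0.68 (SE 0.20) and −0.68 (SE 0.28). RRM1 stood at 242, 173 and 189 CPM across the control libraries and 97.05, 136 and 142 across the KO libraries. RRM2 stood at 239, 144 and 207 CPM across the control libraries and 83.3, 157 and 128 across the KO libraries, overlapping because KO R2 was above control R2. TK1, thymidine kinase, stood at 81.6, 82.6 and 64.1 CPM across the control libraries and 33.4, 65.4 and 67.5 across the KO libraries (−0.46, SE 0.28), so that KO R1 alone was far below the rest.

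The cyclin E and E2F genes had the lowest median of the role groups, −1.16, with 3 of 5 not overlapping (6.86% of all genes). CCNE2, one of the cyclins E that drive entry into S phase, stood at 9.24, 4.11 and 15.45 CPM across the control libraries and 2.55, 3.15 and 2.605 across the KO libraries, on 48 to 307 counts. It had the largest difference of the 51, and control R2 lay close to the KO libraries (−1.79, SE 0.48, edgeR adjusted p = 0.635). CCNE1 had −0.94 (SE 0.35). The activator E2F2 had −1.16 (SE 0.35) and E2F1 −0.55 (SE 0.24), E2F1 standing at 44.9, 32.98 and 52.8 CPM across the control libraries and 22.8, 35.9 and 30.9 across the KO libraries. E2F8, a repressor of the family, was scarce, with 15 to 76 counts per library, and had −1.27 (SE 0.58).

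In the replication-coupled chromatin group all 4 genes were without overlap (6.86% of all genes). UHRF1, which guides maintenance of DNA methylation behind the fork, stood at 111, 67.4 and 115 CPM across the control libraries and 42.0, 62.5 and 51.7 across the KO libraries (−0.91, SE 0.25, edgeR adjusted p = 0.635). CHAF1A and CHAF1B, subunits of the histone chaperone CAF-1, had −0.54 (SE 0.17) and −0.56 (SE 0.19). SLBP, which binds histone messages, stood at 72.6, 73.3 and 84.6 CPM across the control libraries and 72.5, 60.2 and 72.1 across the KO libraries, a difference of −0.17 (SE 0.13) in which the labels were apart by less than 1 CPM.

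Of the fork checkpoint and repair genes, CLSPN, encoding the checkpoint mediator claspin, stood at 39.9, 24.8 and 37.3 CPM across the control libraries and 14.6, 17.25 and 17.49 across the KO libraries. Its labels did not overlap (−1.05, SE 0.21, edgeR adjusted p = 0.635). BRCA1, which protects stalled forks, had −0.41 (SE 0.15) with no overlap. BLM, a helicase that resolves recombining strands, had −0.42 (SE 0.29), and DTL, which targets CDT1 for destruction, −0.28 (SE 0.17), both with overlap. DTL stood at 102, 95.8 and 74.1 CPM across the control libraries and 63.2, 78.1 and 82.4 across the KO libraries.

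**Figure D3:**
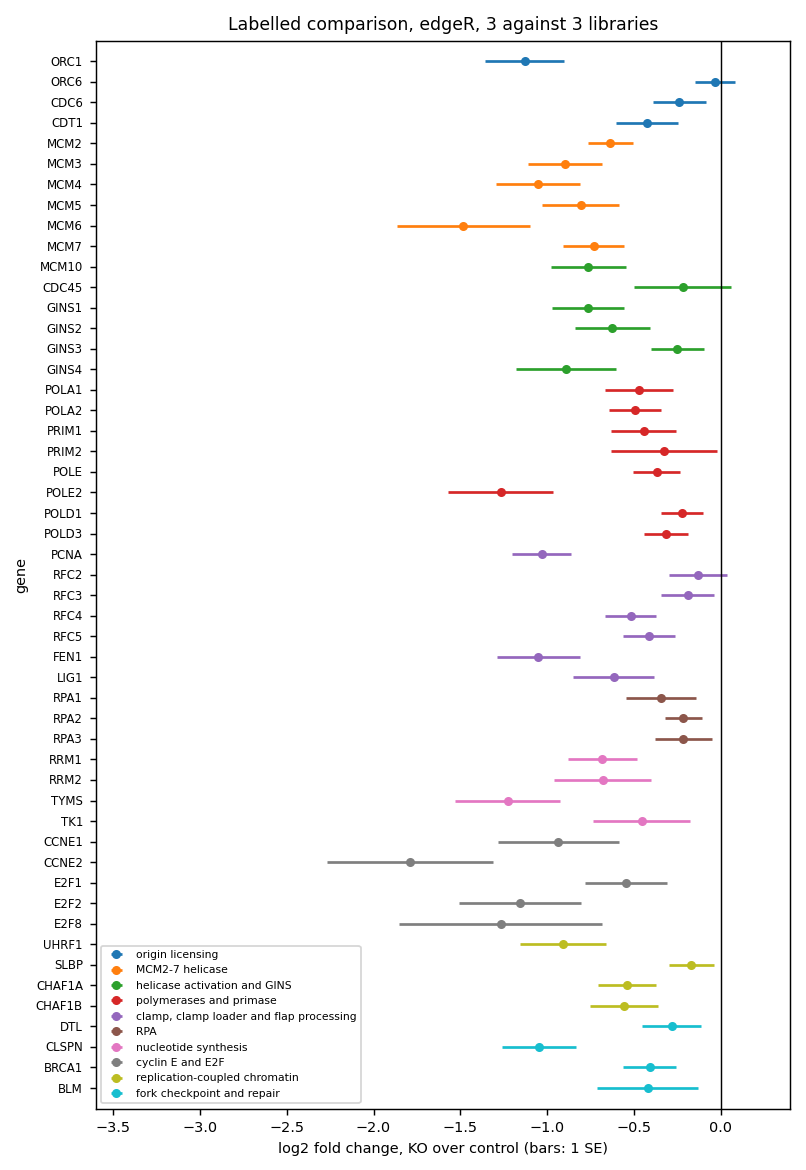
Log2 fold change of KO over control for each of the 51 genes with 1 SE from edgeR, 3 against 3 libraries, coloured by role group. All points lie left of 0, from CCNE2 at −1.79 to ORC6 at −0.04, and none passed the adjusted threshold.

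Because DAPK3 RNA went against 2 labels, the labels were also set side by side among libraries of similar DAPK3 RNA. Among the 3 libraries with DAPK3 over 25 CPM, KO R2 was below both control R1 and control R3 in 45 of the 51 genes (36.6% of all genes tested), with a median difference of −0.55 in log2(CPM + 0.5). The 6 exceptions were CDC45, PRIM2, RFC2, RPA3, TK1 and DTL. Among the 3 libraries with DAPK3 under 14 CPM, control R2 was above both KO R1 and KO R3 in 46 genes (34.5% of all), and the mean of KO R1 and KO R3 was lower than control R2 by a median of −0.42. ORC6, CDC6, PRIM2, RFC3 and BLM were the 5 exceptions. Both orders held in 41 genes, against 18.3% of all genes. Each of these sets has 1 library of a label, so no test was made. The 2 sets also differ over the genes tested as a whole, and in COL1A1, PDGFRB and PTPRC. The part of these differences was not tested.

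Within a label, libraries of differing DAPK3 RNA were set side by side, with no test. Control R2 was the lowest control library in 38 of the 51 genes (40.9% of all genes) and the highest in 6 (40.2%), with a median of −0.31 against the mean of control R1 and control R3. KO R2 was the highest KO library in 23 genes (41.0%) and the lowest in 9 (40.4%), so its highest count is near that of all genes. KO R1 was below KO R2 by a median of −0.33, and KO R3 differed from KO R2 by a median of 0.01. Of all 6 libraries, KO R1 was the lowest in 39 genes (19.9% of all genes) and control R1 the highest in 35 (19.2%). The summed level of the 51 genes was 4388, 3382 and 4005 CPM across the control libraries and 2180, 2702 and 2815 across the KO libraries.

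With the log2 CPM of DAPK3 as a covariate beside the label, edgeR called 0 genes, and 37 of the 51 were lower at an unadjusted p under 0.05 (8.38% of all genes were). The smallest adjusted p was 0.108, shared by several of the 51, among them PCNA at −0.98 (SE 0.15) and MCM6 at −1.24 (SE 0.20). RPA1, the largest RPA subunit, had −0.47 (SE 0.11, edgeR adjusted p = 0.125) with the covariate and −0.34 (SE 0.20) without it. In a fit with a block for each pair of consecutive library numbers (1 and 2, 6 and 7, 11 and 12), edgeR called 0 genes and 22 of the 51 were lower at an unadjusted p under 0.05 (1.27% of all genes were). That fit takes the label difference from the 1 pair with both labels, control R3 and KO R1, which also differ in DAPK3 RNA (26.1 and 13.1 CPM). Its spread comes from the 2 pairs of a single label, and the lone library of each label is assumed to vary like them.

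Without both R2 libraries, so that label and DAPK3 RNA went together by choice of the libraries, edgeR called 4056 of 14846 genes, of which 31 were among the 51, all lower (15.2% of all genes tested were called lower). All 6 MCM2 to MCM7 genes, all 5 cyclin E and E2F genes and 0 of 3 RPA genes were called. Among the called genes MCM6 had a log2 fold change of −2.06 (SE 0.21), CCNE2 −2.27 (SE 0.32), POLE2 −1.70 (SE 0.21) and PRIM2 −0.84 (SE 0.15). Of the remaining 20, ORC6 stood at 0.03 (SE 0.12) and TK1 at −0.54 (SE 0.31). In this comparison of 2 against 2 libraries the left-out libraries were picked for their DAPK3 RNA, so its p-values are no independent evidence for the labels.

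**Figure D4:**
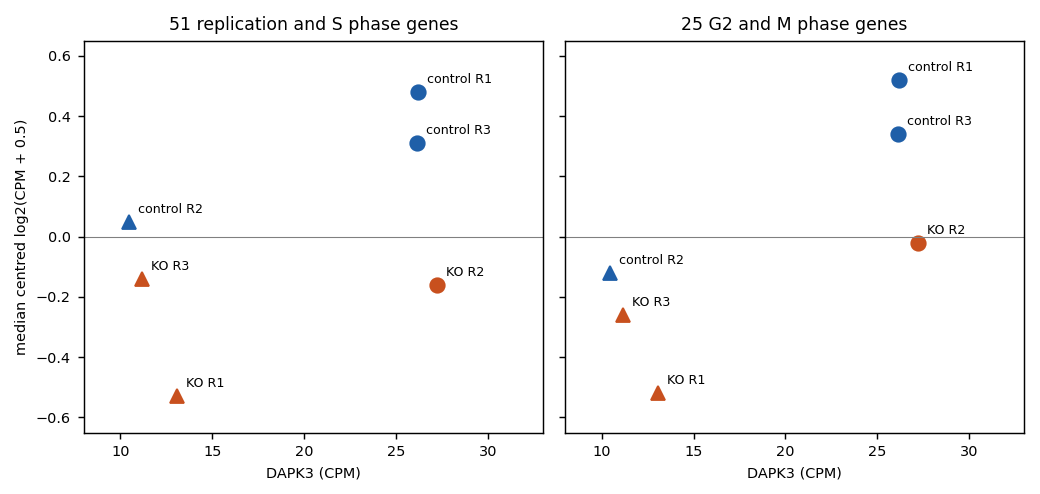
Median over genes of the centred log2(CPM + 0.5) against DAPK3 CPM for each library, for the 51 genes (left) and for 25 G2 and M phase genes (right), blue for control and orange for KO. On the left control R2 lies at 0.05, above KO R2 at −0.16, and on the right at −0.12, below KO R2 at −0.02.

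Other genes of the cell cycle were counted by list, and edgeR called none in any of them. Of 27 other replication factors 19 were below 0 and the median log2 fold change was −0.21, with 9 lower and 1 higher at an unadjusted p under 0.05. GMNN, the inhibitor of CDT1, had −0.50 (SE 0.12), RECQL4 −0.53 (SE 0.16), DONSON −0.72 (SE 0.22) and the kinase CDC7 −0.43 (SE 0.14). POLD4, a small subunit of polymerase delta, was at 8.70, 8.27 and 7.10 CPM across the control libraries and 11.7, 12.7 and 9.81 across the KO libraries (0.51, SE 0.19). POLD2, another subunit, had 0.23 (SE 0.17). POLD2 stood at 255.5 to 300.6 CPM in the libraries with low DAPK3 RNA and at 191 to 253.5 in the others. Of 15 other nucleotide supply genes 2 were lower at an unadjusted p under 0.05 (4.17% of all genes). Among them was DUT, which removes dUTP, at −0.86 (SE 0.27), and SHMT2 was the highest of the list at 0.27 (SE 0.22). SHMT1 and CAD had −0.45 (SE 0.23) and −0.29 (SE 0.18).

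The 23 other E2F, RB and G1/S regulators had a median of 0.02. At an unadjusted p under 0.05, 4 were lower (4.17% of all genes) and 2 higher (3.49%). SKP2, CDK2, CCNA2 and RBL1 had −0.70 (SE 0.14), −0.76 (SE 0.17), −0.51 (SE 0.17) and −0.66 (SE 0.23). The 2 higher were E2F4 at 0.39 (SE 0.15) and E2F7 at 0.59 (SE 0.24), named after their values were seen. CCND2, a cyclin D, had the largest difference upward at 0.86 (SE 0.88) and went with DAPK3 RNA, at 7.08, 37.2 and 6.29 CPM across the control libraries and 43.7, 7.73 and 40.1 across the KO libraries. Of 7 CDK inhibitors 5 were tested. CDKN2C had −1.02 (SE 0.24), CDKN1C −1.10 (SE 0.53), CDKN2D −0.37 (SE 0.34) and CDKN1A, encoding p21, 0.59 (SE 0.31). CDKN1A stood at 67.97, 106.8 and 50.03 CPM across the control libraries and 136.6, 84.04 and 118 across the KO libraries. Its labels overlapped, and it went with DAPK3 RNA, being higher in the libraries with low DAPK3 RNA. CDKN1C and CDKN2D also split by DAPK3 RNA, but were higher where DAPK3 RNA was high.

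Of 7 further chromatin genes all 7 were below 0, with 3 lower at an unadjusted p under 0.05: the histone chaperones ASF1B at −0.96 (SE 0.21) and NASP at −0.27 (SE 0.11), and the remodeller HELLS at −0.68 (SE 0.23). DNMT1, the maintenance methyltransferase, had −0.37 (SE 0.17). Among 18 repair and checkpoint genes tested, 16 were below 0 and the median was −0.41. MSH6, a mismatch repair gene, had −0.83 (SE 0.24), RAD54L −0.64 (SE 0.19) and WEE1 −0.50 (SE 0.17), while PALB2 was at 0.33 (SE 0.21). PALB2 went with DAPK3 RNA, at 54.6 to 66.4 CPM in the libraries with low DAPK3 RNA and 34.8 to 49.7 in the others.

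The 25 G2 and M phase genes were all below 0, with a median of −0.54, close to the −0.55 of the 51 replication genes. Of these 14 were lower at an unadjusted p under 0.05 (4.17% of all genes), and 9 had no overlap (6.86% of all genes). KIF20A, a mitotic kinesin, had −1.66 (SE 0.38), CCNF −0.51 (SE 0.12), CDK1 −0.996 (SE 0.28) and PLK1 −0.63 (SE 0.18). By library their centred median was 0.52, −0.12 and 0.34 in control and −0.52, −0.02 and −0.26 in KO, so the labels overlapped, with control R2 below KO R2. For the 51 genes it was 0.48, 0.05 and 0.31 in control and −0.53, −0.16 and −0.14 in KO, with no overlap. The difference between the lists was not tested.

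**Figure D5:**
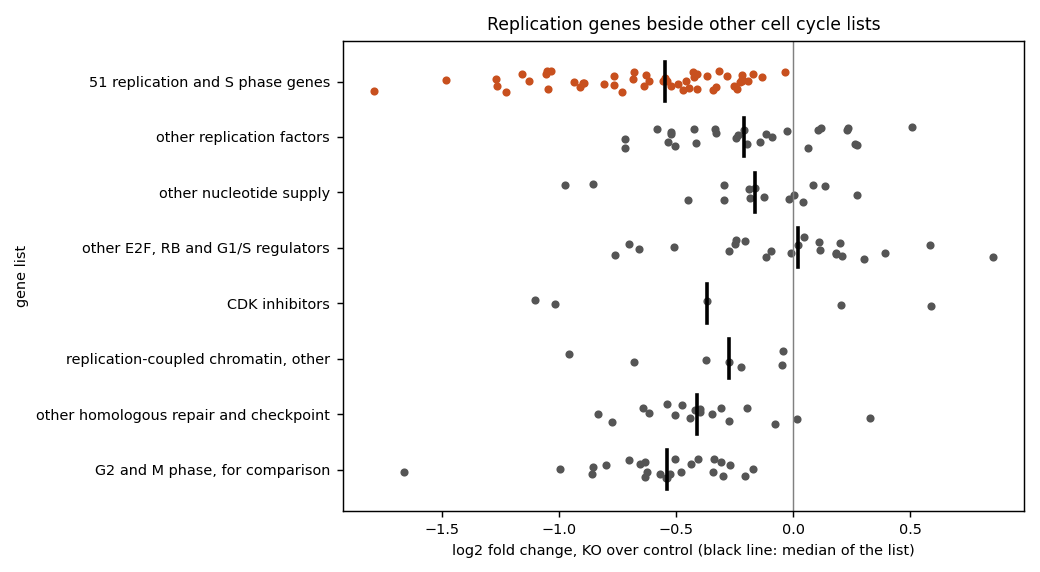
Log2 fold change of KO over control for single genes (points) of the 51 replication and S phase genes and of 7 other lists, with the median of each list as a black line. The medians run from −0.55 for the 51 genes to 0.02 for the other E2F, RB and G1/S regulators.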

How the data were processed

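RNA of 3 control and 3 DAPK3 KO libraries was analysed. The deposited values are expected counts, RSEM's estimated read numbers, without normalization. RSEM, Bowtie2, edgeR and GRCh38 are named in the submitters' processing notes. For tool versions, gene annotation and strandedness nothing is stated (not given in the sources used here). Exons of 19 of the 51 genes overlap exons of a gene on the other strand in GENCODE 29 (among them 1150 bases of TYMS, 1158 of MCM2 and 1633 of CCNE2). If the libraries were not stranded, reads of such partners cannot be told apart.

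Expected counts were rounded and tested with edgeR 4.0.16 (R 4.3.3): quasi-likelihood test, TMM factors (0.991 to 1.015), filterByExpr, Benjamini-Hochberg adjustment over 14613 genes and a threshold of 0.05. The SE is the log2 fold change over the root of F. CPM is the rounded count over the library total times its TMM factor. Lists were described by counts and medians. The members, lists, named genes and alternatives were chosen with earlier results of these data known. Per role group the genes with the smallest p, the highest mean CPM and the smallest difference got full values, and elsewhere up to 4 genes with the smallest p and the largest opposite one. ATRIP had 2 rows and was left out. Values of some listed genes that are not members are not reported here. All libraries differed by more than sampling noise (chi-square per degree of freedom 12.9 to 119.5). Pairs of libraries with similar DAPK3 RNA gave 12.9 to 40.9, whatever their labels. Pairs with differing DAPK3 RNA gave 69.5 to 119.5, also within a label, as for control R1 with control R2 at 88.6. Alternatives were other scalings, filters, DESeq2 1.42.0, limma-voom (limma 3.58.1), a replicate block, left-out libraries, DAPK3 RNA as a covariate, a block of consecutive library numbers and adjusted p thresholds of 0.10 and 0.01. The edgeR step was tested on simulated counts.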

Additional observations from a re-analysis of the deposited data

How the results depend on the processing

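The median log2 fold change of the 51 genes stayed negative under all 17 settings that were refitted, from −0.43 without KO R1 to −0.90 with consecutive library numbers as a block. Of the 425 refitted values of the 25 genes with full statistics, 398 kept their direction and stayed above the threshold, 24 kept their direction and passed it, and 3 reversed: CDC45 at 0.018 without KO R1, and ORC6 at 0.021 without KO R2 and 0.033 without both R2 libraries. With 1 library left out at a time, CDC45 was lowest at −0.504 (without KO R2) and ORC6 at −0.120 (without KO R3), and over all settings CDC45 was lowest at −0.765, with consecutive library numbers as a block. DESeq2 called 124 genes in all and 12 of the 51, and the fit without both R2 libraries 4056 and 31; the cause of the DESeq2 difference was not tested. The replicate number as a block left 17 of the 51 lower at an unadjusted p under 0.05 (1.03% of all genes), and leaving out 1 library left 20 to 31 (1.42% to 9.06% of all genes), with 20 both without control R1 and without KO R1. Same-numbered libraries deviated from their label means in opposite directions (correlations of −0.68, −0.86 and −0.73). Each such pair holds 1 library of high and 1 of low DAPK3 RNA. Control and KO libraries of similar DAPK3 RNA gave 0.61 to 0.82, and those of differing DAPK3 RNA −0.86 to −0.33. The correlations therefore cannot show if the replicate numbers stand for a pairing. The block called 0 genes, as did the comparison without it. The order of all KO below all control libraries depends on no fit and was recomputed only for scalings and left-out libraries. Genes with few counts, such as E2F8 with 15 to 76 and CCNE2 with 48 to 307 per library, are the least precise.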

Other observations

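The labels number the libraries 1, 2, 6, 7, 11 and 12, in the order control R1, R2, R3 and KO R1, R2, R3, which makes 3 pairs of consecutive numbers. Each pair held 1 library with DAPK3 over 25 CPM and 1 under 14. In the first pair control R2 was below control R1 in 44 of the 51 genes (50.1% of all genes tested), with a median difference of −0.40 in log2(CPM + 0.5). For the second pair KO R1 was below control R3 in all 51 (49.7% of all genes), with a median of −0.89. KO R3 was below KO R2 in 24 of 51 in the third pair (50.4%), with a median of 0.01. The summed level of the 51 genes was 4388 and 3382 CPM in the first pair, 4005 and 2180 in the second and 2702 and 2815 in the third, so both libraries of the third pair, each labelled KO, lay below both of the first pair, each labelled control. What the numbers stand for is not stated. All control libraries have lower numbers than all KO libraries, so number order and label go together. Apart from the fit with a block for each pair, the part of the numbers in the results was not tested.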
